A study of Mus musculus with 20 samples.

Results

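The nuclear genes for respiratory complex I were followed in RNA sequencing of mouse oocytes and early embryos. They were taken by symbol, as every gene named Nduf with a letter group for the A, B, C, S, V or AB subunits or for the AF assembly factors and a number. This gave 44 of the 23309 gene symbols in the deposited tables, 37 subunit genes and 7 assembly factor genes. Values are FPKM, fragment counts divided by transcript length and by the mapped total of the library, so they are relative levels. Changes are differences of log2(FPKM + 1), a scale that understates changes of genes with FPKM near or under 1.

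Complex I oxidizes NADH at the matrix end of its peripheral arm and passes the electrons along iron-sulfur clusters to ubiquinone, while the membrane arm pumps protons. Its N module holds the NADH site, its Q module the ubiquinone site, and the membrane arm has a proximal and a distal part. Nuclear genes encode part of the catalytic core and all accessory subunits, and mitochondrial DNA encodes the rest of the core. Assembly factors bind intermediates and leave before the complex is complete. The growing oocyte makes and stores mRNAs and mitochondria for the embryo, and mitochondrial DNA does not replicate through the first cleavages. BTG4 is an adaptor of the CCR4-NOT deadenylase, which shortens poly(A) tails of maternal mRNAs when the oocyte matures, and ERK kinase activity rises with meiotic resumption.

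All libraries came from mice of the ICR strain, from females aged 21 to 23 days that had received PMSG and hCG, and each sample pooled 60 oocytes or embryos per the labels. Embryos were from mated females, and the genotype of the males is not given. In the Btg4 experiment there were libraries labelled Btg4-/- and wild type at the germinal vesicle (GV) oocyte, the mature oocyte in second meiotic metaphase (MII), the zygote and the 2-cell embryo, with 2 libraries in each of the 8 groups. The Erk experiment had 1 library each of Erk-/- and wild-type GV and MII oocytes, and shares no library with the Btg4 experiment. The labels give neither the Btg4 allele nor the Erk gene that was deleted, and the collection text of the Erk libraries names Btg4-/- and wild-type females alone, while the series text speaks of a single oocyte for each of the 4. Whether the 2 libraries of a group came from different females is not stated, so the p-values rest on a spread that may be technical. The question of the genotype comparison was which transcripts differ in oocytes and embryos labelled as lacking BTG4 as maternal mRNA is cleared.

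In each library 7265 to 10058 symbols were at 1 FPKM or more, and the 8 oocyte markers all did so in every group. Over the complex I genes, Pearson's r of the paired libraries of a group (across genes, a description) was 0.821 in wild-type 2-cell embryos and 0.905 to 0.990 in the other 7 groups. Btg4 itself was at 1980 and 1881 FPKM in GV oocytes labelled Btg4-/-, against 1450 and 1673 in wild type, and at the 2-cell stage it was at 3514 and 3632, against 1147 and 964. It was lower in Btg4-/- at MII, at 172 and 191 against 415 and 406, and in the zygote, at 139 and 164 against 610 and 559. The level of Btg4 thus went with the labels at MII and in the zygote and against them at GV and the 2-cell stage, and the groups are called by their labels.

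Together the 44 genes made up 1.35 and 1.26% of all FPKM in GV oocytes labelled Btg4-/-, against 1.21 and 1.20% in wild type. At MII the share was 1.33 and 1.33% in Btg4-/- and 0.557 and 0.669% in wild type. In zygotes it was 0.968 and 0.944% in Btg4-/- against 0.384 and 0.384% in wild type. By the 2-cell stage it was 0.912 and 0.832% in Btg4-/- and 0.22 and 0.266% in wild type. The share was higher in both Btg4-/- libraries than in either wild-type library at every stage, by little at GV and by much more from MII onward. In bulk libraries of pooled cells, less RNA per cell and fewer cells contributing it cannot be told apart, and FPKM carries no measure of RNA per oocyte. The mRNA was purified before library preparation. If that step held mRNA by its poly(A) tail, FPKM may follow tail length as well as mRNA amount, and the part of each was not tested.

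**Figure D1:**
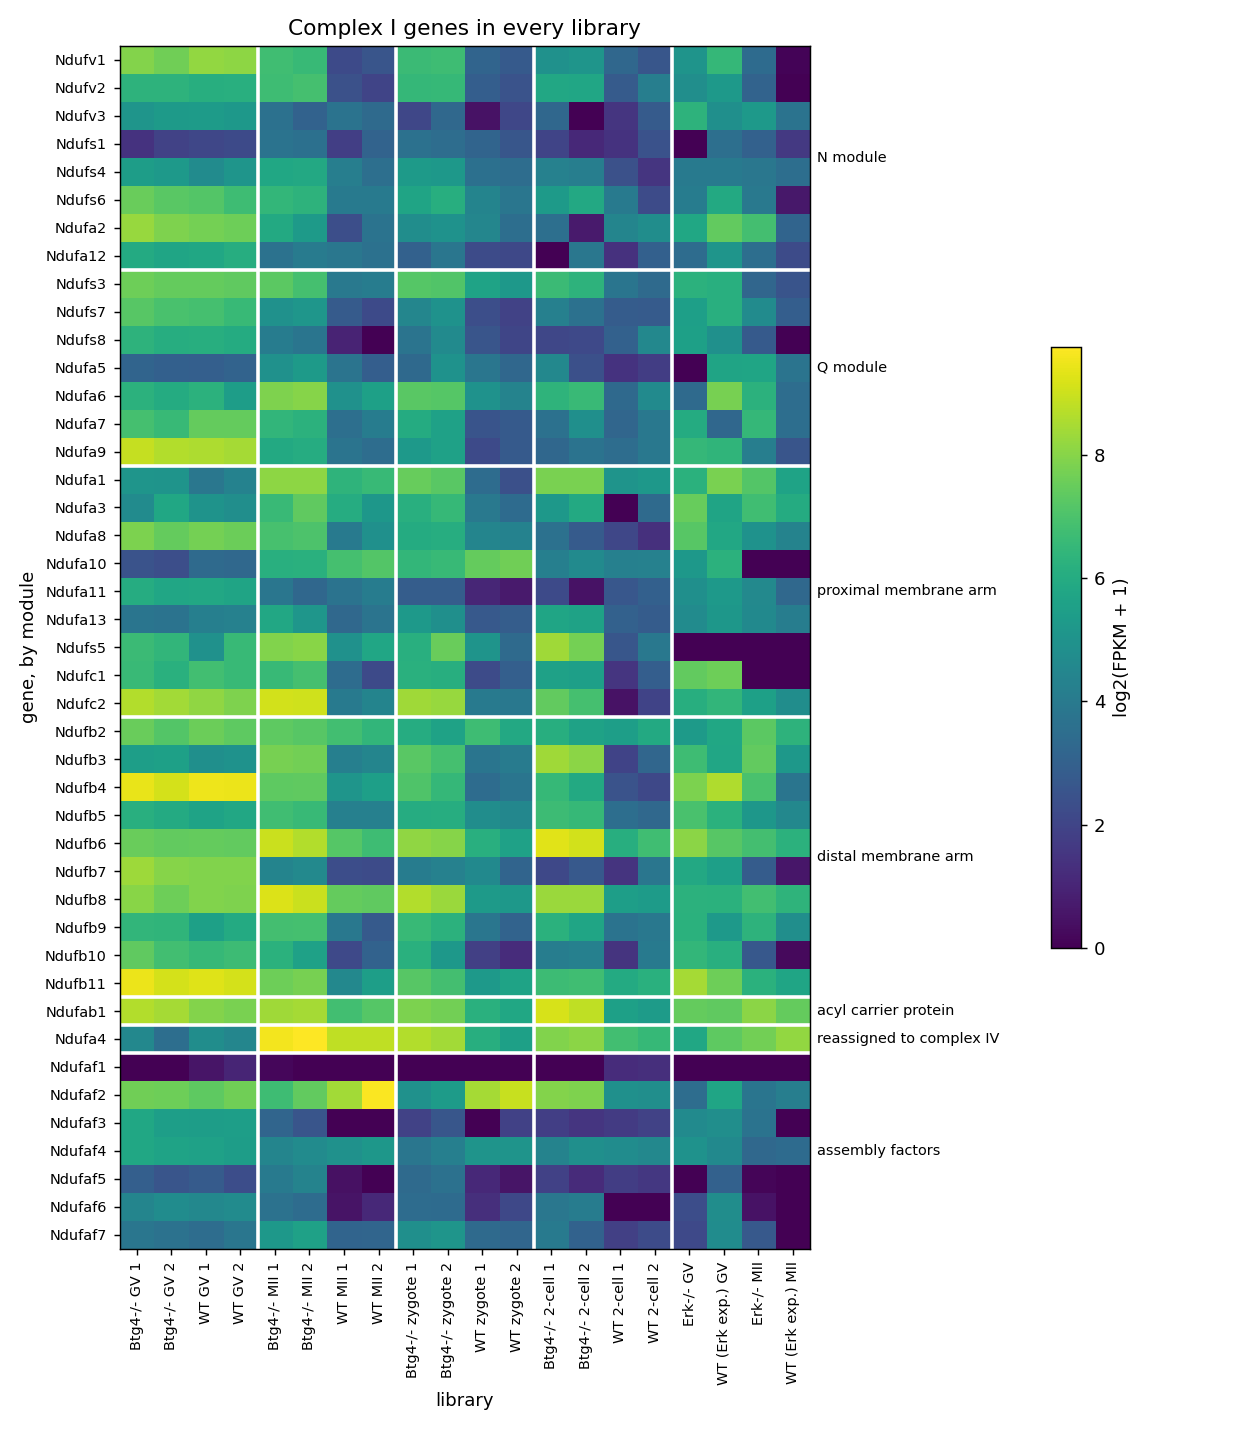
Level of 43 of the 44 complex I genes (rows, by module) in each of the 20 libraries (columns, by stage with Btg4-/- left of wild type, then the Erk experiment with Erk-/- left of wild type), as log2(FPKM + 1). From MII onward most rows are darker in the wild-type columns, while Ndufa10 and Ndufaf2 are brighter there at MII and in the zygote.

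From MII onward most complex I genes had higher FPKM in the libraries labelled Btg4-/-. At MII, 35 of the 44 genes were higher and 2 were lower (limma, adjusted p below 0.05), where 29.1% of the 12311 genes tested were higher and 23.3% lower. The median change of the 44 was 2.37, against 0.09 over all genes tested. In zygotes 33 were higher and 3 lower, where 24.4 and 23.3% of all genes were, with a median of 1.96 against 0.01. In 2-cell embryos 28 were higher and 4 lower, where 22.6 and 26.4% of all genes were, with a median of 1.89 against -0.05. The 4 lower ones were Ndufa2, Ndufs8, Ndufa11 and Ndufaf1, and without wild-type 2-cell library 2 a single gene was lower. All 44 genes had passed the filter on low values, a mean of at least 1 FPKM in at least 1 group. Ndufaf1 did so through wild-type 2-cell embryos alone. The 44 genes have short annotated transcripts, with a median of 797.5 nucleotides against 1954.5 over the genes tested. Length was taken per gene as the median over its annotated protein-coding transcripts (GENCODE M21), short ones included. For Ndufs1 this gave 651, while the transcript read below for its 3′ end has 2661. With a correction for these lengths 32 were higher and 3 lower at MII (median 1.81). Scaling by the median of ratios gave 32 and 3 at MII (median 2.06), 32 and 3 in the zygote and 27 and 4 at the 2-cell stage. That scaling moved the median over all genes to 0 at GV and to -0.26 at the 2-cell stage, with medians of 0.33 and 1.64 for the 44. Of the 44 genes, 25 were higher at all 3 of these stages and 3, Ndufa12, Ndufb2 and Ndufv3, passed at none. The same joint count was not made over all genes tested, so it cannot be called particular to complex I.

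GV oocytes differed in few of these genes. There 2 were higher and 2 lower in Btg4-/-, where 1.45% of all genes tested were higher and 6.46% lower, and the median change was 0.13 against -0.12. Ndufa1, a small membrane-anchored subunit, was at 33.2 and 31.8 FPKM in Btg4-/- and 13.6 and 19.2 in wild type (log2 change 0.96 ± 0.27 (SE), adjusted p = 0.0474). Ndufab1, the mitochondrial acyl carrier protein, was at 394 and 350 against 246 and 222 FPKM (0.67 ± 0.16 (SE), adjusted p = 0.0291). Ndufa10, an accessory subunit of the membrane arm, was at 4.65 and 4.01 FPKM in Btg4-/- against 9.47 and 8.84 in wild type (-0.93 ± 0.17 (SE), adjusted p = 0.00571). Groups did not overlap for any of these 3, but the calls of Ndufa1 and Ndufab1 were lost when any 1 of the 4 GV libraries was left out, with adjusted p of 0.0798 to 0.304 and 0.0898 to 0.175. The call of Ndufa10 was lost without Btg4-/- GV library 2 (adjusted p = 0.0547) or wild-type GV library 1 (0.0536). The fourth, Ndufaf1, an assembly factor for the membrane arm, was listed at 0 in both Btg4-/- libraries and at 0.457 and 1.01 FPKM in wild type. Its call (-0.78 ± 0.19 (SE), adjusted p = 0.0273) was lost without either Btg4-/- library (0.0819 and 0.109) or without wild-type GV library 2 (0.173).

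**Figure D2:**
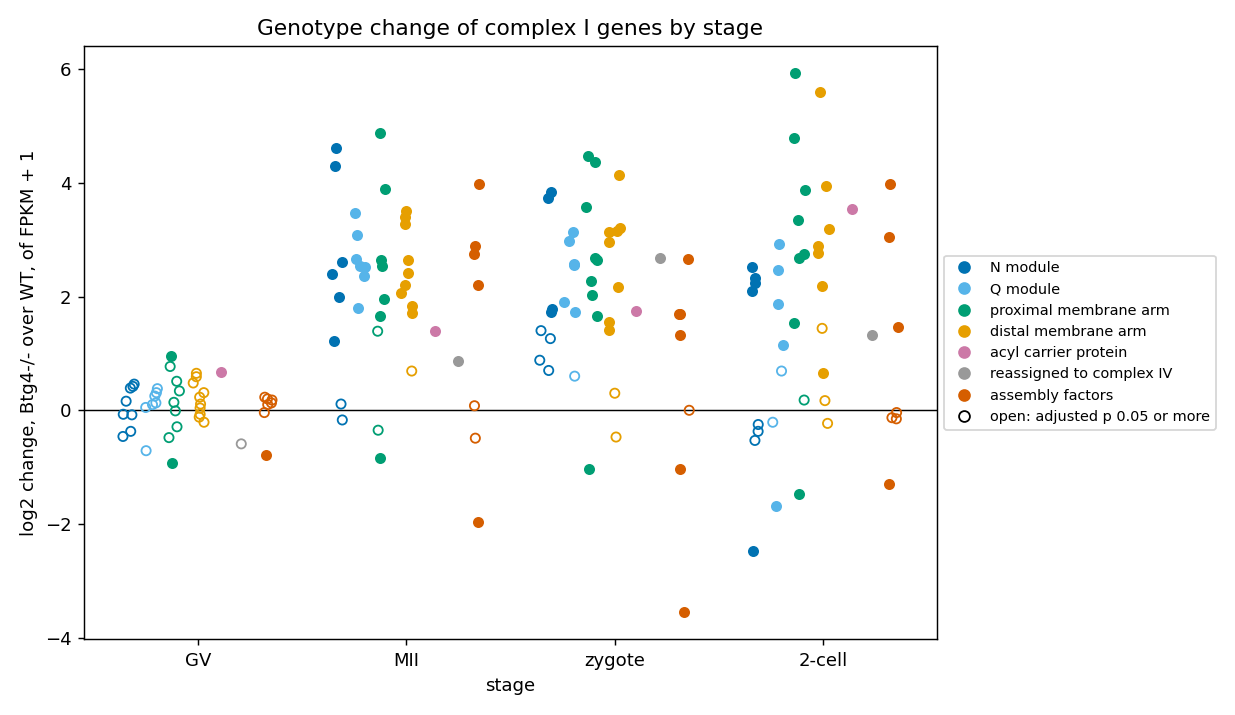
Log2 change of FPKM + 1, Btg4-/- over wild type (vertical), of 43 of the 44 genes at the 4 stages (horizontal), coloured by module, with filled points for adjusted p below 0.05 in limma. Points lie around 0 at GV, and most lie above 0 at the later stages, with Ndufaf2 the lowest point at MII (-1.97) and in the zygote (-3.55).

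Core subunits encoded in the nucleus carry the flavin and iron-sulfur clusters, and those described here were higher in Btg4-/- at MII, with changes of 1.21 to 4.61. Ndufv1, which binds NADH and the flavin (mm9, chromosome 19, 4007505 to 4012725), was at 245 and 196 FPKM at GV, 109 and 95 at MII, 99.5 and 104 in the zygote and 29.8 and 33.4 at the 2-cell stage in Btg4-/-. Wild-type libraries had 289 and 276, 3.6 and 4.93, 7.79 and 5.82, and 8.45 and 5.13 FPKM at those stages. It was higher in Btg4-/- by 4.30 at MII (adjusted p = 7e-09), 3.73 in the zygote (4.17e-08) and 2.10 at the 2-cell stage (4.76e-06), with no overlap. Its neighbour in the N module, Ndufv2, an iron-sulfur subunit, was at 77.6 and 77.3 FPKM at GV, 106 and 116 at MII, 90 and 91.9 in the zygote and 56.1 and 54 at the 2-cell stage in Btg4-/-. The wild-type levels of Ndufv2 were 68.7 and 69.4, 4.31 and 2.96, 6.49 and 4.6, and 5.98 and 17 FPKM at those stages. It was higher by 4.61 ± 0.32 (SE), adjusted p = 1.26e-07 at MII, 3.83 in the zygote and 2.32 at the 2-cell stage, and the groups did not overlap at any of the 3.

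Ndufs1, the other iron-sulfur subunit of the N module, had 1.71 and 2.82 FPKM at GV, 12.3 and 11.2 at MII, 11.3 and 10.3 in the zygote and 3.02 and 1.19 at the 2-cell stage in Btg4-/-. In wild type Ndufs1 was at 3.26 and 3.57, 2.47 and 7.69, 7.73 and 5.04, and 1.66 and 4.52 FPKM at those stages. It was low at GV, and the genotypes passed at MII and at neither later stage (1.21, adjusted p = 0.0382; zygote 0.70, 0.232; 2-cell -0.37, 0.534). The MII call was lost with median-of-ratios, quantile or length-corrected values and without either Btg4-/- library or wild-type library 1. Its locus shares 14704 bases with that of Gm11602, and the sources used here do not say whether counting used the strand, so reads of the pair may be split.

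Other core subunits belong to the Q module. Ndufs3, an early scaffold of the module, was at 192 and 173 FPKM at GV, 157 and 118 at MII, 146 and 136 in the zygote and 99.7 and 78.2 at the 2-cell stage in Btg4-/-. Its wild-type levels were 175 and 165, 14.2 and 16.2, 49.1 and 35.4, and 12.7 and 9.23 FPKM at those stages. The change was 3.08 at MII (adjusted p = 6.35e-08), 1.73 in the zygote (1.42e-05) and 2.92 at the 2-cell stage (1.34e-07). Ndufs7, which carries the terminal iron-sulfur cluster, was at 149 and 123 FPKM at GV, 29.5 and 33.5 at MII, 21.2 and 30.6 in the zygote and 18.2 and 11.6 at the 2-cell stage in Btg4-/-. Wild type had 116 and 93.6, 6 and 3.55, 4.09 and 2.84, and 6.2 and 5.91 FPKM at those stages. Ndufs7 was higher by 2.52, 2.58 and 1.14 at MII, zygote and 2-cell stage (adjusted p = 5.13e-06, 5.81e-06 and 0.00355), with no overlap.

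Ndufs8, another iron-sulfur subunit, changed direction between stages. It was at 78.1 and 66.2 FPKM at GV, 16.3 and 13 at MII, 12.5 and 24.1 in the zygote and 3.17 and 3.45 at the 2-cell stage in Btg4-/-. In wild type it was at 69.2 and 62.3, 0.954 and 0, 4.95 and 3.09, and 7.16 and 22.3 FPKM at those stages. It was higher in Btg4-/- at MII (3.47, adjusted p = 2.88e-05) and in the zygote (1.90, 0.00375) and lower at the 2-cell stage (-1.68, 0.0078). The 2-cell call rested on wild-type library 2, without which it was -0.92 (adjusted p = 0.125), and the zygote call was lost without Btg4-/- library 2.

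By module, all 8 Q module genes were higher at MII, 7 in the zygote and 5 at the 2-cell stage, where Ndufs8 was lower. Beside these and the module counts below, 29.1% of all genes tested were higher and 23.3% lower at MII. In the zygote 24.4 and 23.3% of all genes were, and at the 2-cell stage 22.6 and 26.4%. Modules of so few genes were not tested against each other. Of the 8 N module genes 6, 4 and 4 were higher at those stages, and 1, Ndufa2, was lower at the 2-cell stage. Ndufa2 was at 60.1 and 38.7 FPKM in Btg4-/- and 4.03 and 12.2 in wild type at MII, and at 10.8 and 0.63 against 20.7 and 26.2 at the 2-cell stage (-2.47 ± 0.70 (SE), adjusted p = 0.0103). The 2 Btg4-/- libraries differed widely in this gene, and without the second of them the change was -1.04 (adjusted p = 0.129). Without wild-type library 1 or 2 it was -2.64 (0.0543) or -2.31 (0.0862). Ndufa12 and Ndufv3, the N module genes that passed at none of these stages, were among the most variable, with Ndufa12 at 0 and 13.7 and Ndufv3 at 8.47 and 0 FPKM in the Btg4-/- 2-cell libraries.

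In the proximal membrane arm 6 of 9 genes were higher and 1 lower at MII, 8 and 1 in the zygote, and 7 and 1 at the 2-cell stage. Ndufc2, a membrane subunit at the foot of the arm (mm9, chromosome 7, 104548513 to 104556310), was at 394 and 334 FPKM at GV, 550 and 533 at MII, 332 and 300 in the zygote and 168 and 117 at the 2-cell stage in Btg4-/-. Wild-type levels were 278 and 233, 15.1 and 20.3, 14.7 and 14.1, and 0.401 and 2.87 FPKM at those stages. The groups did not overlap at any stage, and the change was 0.51 at GV (adjusted p = 0.454), 4.87 ± 0.35 (SE), adjusted p = 1.37e-07 at MII, 4.36 in the zygote (5.28e-07) and 5.93 at the 2-cell stage (3.21e-08). The 2-cell change of Ndufc2 had the largest size of any complex I gene in the genotype comparisons. Ndufa1 was at 179 and 153 FPKM in Btg4-/- zygotes and 9.93 and 4.15 in wild type (4.47 ± 0.27 (SE), adjusted p = 6.04e-08), the largest change at that stage. 

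Ndufs5, a subunit on the intermembrane side, was at 325 and 208 FPKM in Btg4-/- and 5.04 and 14 in wild-type 2-cell embryos (4.78 ± 0.65 (SE), adjusted p = 5.59e-05). Its locus shares 5452 bases with BC002163, which was at 61.9 and 102 against 0.0002 and 3.26 FPKM there, so the split of reads between the pair is uncertain. Ndufa11 went against the group at the 2-cell stage, at 3.62 and 0.396 FPKM in Btg4-/- and 5.31 and 6.91 in wild type (-1.48 ± 0.42 (SE), adjusted p = 0.0108). Without Btg4-/- library 2 the change was -0.61 (adjusted p = 0.112), and without wild-type library 2 it was -1.31 (0.0888). In zygotes Ndufa11 was higher, at 6.43 and 6.4 against 1.06 and 0.63 FPKM (2.02, adjusted p = 0.00154).

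Ndufa10 (mm9, chromosome 1, 94336296 to 94370335), a subunit related to nucleoside kinases, was the exception of the membrane arm. It was at 4.65 and 4.01 FPKM at GV, 69.8 and 72.5 at MII, 87.5 and 94.2 in the zygote and 17.4 and 24.5 at the 2-cell stage in Btg4-/-. In wild type it was at 9.47 and 8.84, 116 and 141, 176 and 197, and 17.8 and 18.6 FPKM at those stages. It was lower in Btg4-/- at GV, at MII (-0.84, adjusted p = 0.00091) and in the zygote (-1.03, 0.000233), with no overlap, and did not pass at the 2-cell stage (0.18, 0.412). Within each genotype the levels at MII and in the zygote were higher than at GV and at the 2-cell stage.

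The distal membrane arm, where the Ndufb subunits surround the outermost proton pumps, had 9 of 10 genes higher at MII, 8 in the zygote and 7 at the 2-cell stage, and none lower. Ndufb10 was at 71.7 and 35.4 FPKM in Btg4-/- and 2.64 and 1.38 in wild-type zygotes (4.13 ± 0.63 (SE), adjusted p = 0.000148). Ndufb3 was at 328 and 263 FPKM in Btg4-/- and 2.93 and 8.39 in wild-type 2-cell embryos (5.60 ± 0.30 (SE), adjusted p = 1.88e-08). Neither pair of groups overlapped. Ndufb3 also kept a higher level in Btg4-/- at MII (217 and 204 against 17.7 and 20.9 FPKM, 3.39, adjusted p = 1.07e-06). Ndufb2 was the gene of this arm that passed at no stage, with 160 and 150 FPKM in Btg4-/- and 110 and 83.8 in wild type at MII (0.69, adjusted p = 0.0555).

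Ndufab1, which takes part in fatty acid synthesis and sits in complex I as an acyl carrier protein, was at 394 and 350 FPKM at GV, 332 and 348 at MII, 224 and 202 in the zygote and 567 and 446 at the 2-cell stage in Btg4-/-. The levels in wild type were 246 and 222, 112 and 145, 71.7 and 55.7, and 45.1 and 39.9 FPKM at those stages. The genotypes did not overlap at any stage, and the change was 1.40 at MII (adjusted p = 1.17e-05), 1.74 in the zygote (2.57e-06) and 3.54 at the 2-cell stage (5.59e-09). Ndufa4, now counted as a subunit of cytochrome c oxidase, was at 22.4 and 10.4 FPKM at GV, 759 and 863 at MII, 400 and 336 in the zygote and 236 and 267 at the 2-cell stage in Btg4-/-. Wild-type libraries had 26.5 and 21.1, 447 and 447, 69.1 and 45.9, and 110 and 90.9 FPKM at those stages. It was higher in Btg4-/- by 0.86 at MII (adjusted p = 0.0203), 2.68 in the zygote (5.51e-06) and 1.32 at the 2-cell stage (0.00166), with no overlap. The MII call of Ndufa4 was lost without any 1 of the 4 MII libraries and with median-of-ratios, quantile or length-corrected values.

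The 7 assembly factor genes were more mixed, with 4 higher and 1 lower at MII, 4 and 2 in the zygote, and 3 and 1 at the 2-cell stage. Ndufaf2, a relative of Ndufa12 that binds a late intermediate (mm9, chromosome 13, 108842783 to 108948819), was at 196 and 193 FPKM at GV, 104 and 171 at MII, 29.2 and 40.3 in the zygote and 243 and 235 at the 2-cell stage in Btg4-/-. The wild-type libraries had 159 and 198, 336 and 823, 343 and 494, and 28.9 and 27 FPKM at those stages. It was lower in Btg4-/- at MII (-1.97 ± 0.35 (SE), adjusted p = 0.000341) and in the zygote (-3.55 ± 0.35 (SE), adjusted p = 3.15e-06) and higher at the 2-cell stage (3.05 ± 0.35 (SE), adjusted p = 1.14e-05), without overlap at any of the 3. The 2 wild-type MII libraries differed more than 2-fold from each other.

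Ndufaf3 and Ndufaf4 act together on the Q module intermediate. Ndufaf3 was at 54.6 and 42.8 FPKM at GV, 8.07 and 4.97 at MII, 2.8 and 5.17 in the zygote and 2.54 and 1.83 at the 2-cell stage in Btg4-/-. In wild type it was at 41.6 and 43.7, 0 and 0, 0 and 2.72, and 2.2 and 2.83 FPKM at those stages. It was higher in Btg4-/- by 2.88 at MII (adjusted p = 0.000206) and 1.33 in the zygote (0.0345), and was listed at 0 in both wild-type MII libraries. Its zygote call was lost without Btg4-/- library 2 or wild-type library 1, and with median-of-ratios or length-corrected values. Ndufaf4 was at 54.8 and 49.5 FPKM at GV, 20.7 and 24.9 at MII, 13.3 and 17.3 in the zygote and 19.7 and 28 at the 2-cell stage in Btg4-/-. Its wild-type levels were 46.6 and 42, 29.4 and 35.3, 31.9 and 32.4, and 25.9 and 22.4 FPKM at those stages. In contrast to Ndufaf3 it was lower in Btg4-/- zygotes (-1.03 ± 0.19 (SE), adjusted p = 0.00068) and did not pass at MII (-0.49, 0.0502).

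Ndufaf5, which hydroxylates an arginine of NDUFS7, was at 6.68 and 4.97 FPKM at GV, 15.3 and 19.4 at MII, 9.27 and 11.4 in the zygote and 2.73 and 1.31 at the 2-cell stage in Btg4-/-. Its levels in wild type were 5.98 and 3.97, 0.359 and 0, 1.18 and 0.459, and 2.39 and 2.02 FPKM at those stages. It was higher in Btg4-/- at MII (3.97, adjusted p = 3.94e-07) and in the zygote (2.66, 1.85e-05), not at the 2-cell stage (-0.13, 0.78). Ndufaf6, an early assembly factor, was at 20.9 and 25.6 FPKM at GV, 11.8 and 9.79 at MII, 9.89 and 9.58 in the zygote and 13.5 and 16.2 at the 2-cell stage in Btg4-/-. Its wild-type levels were 22.6 and 25, 0.418 and 1.2, 1.5 and 3.34, and 0 and 0 FPKM at those stages. The change was 2.74 at MII (adjusted p = 3.93e-06), 1.70 in the zygote (0.000283) and 3.98 at the 2-cell stage (1.86e-07), where both wild-type libraries listed it at 0. Where a group is at 0 the change depends on the 1 FPKM added and gives no fold.

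Ndufaf7, a methyltransferase that acts during assembly, was at 13.3 and 11.9 FPKM at GV, 35.8 and 46.5 at MII, 27.8 and 33.3 in the zygote and 14.6 and 7.4 at the 2-cell stage in Btg4-/-. Ndufaf7 in wild type was at 10.1 and 13.4, 7.88 and 8.14, 9.28 and 8.21, and 2.61 and 3.69 FPKM at those stages. It was higher in Btg4-/- by 2.21, 1.69 and 1.47 at MII, zygote and 2-cell stage (adjusted p = 1.78e-05, 0.000221 and 0.000632). Ndufaf1 was at 0 and 0 FPKM at GV, 0.119 and 0 at MII, 0 and 0 in the zygote and 0 and 0 at the 2-cell stage in Btg4-/-. Wild-type levels of Ndufaf1 were 0.457 and 1.01, 0 and 0, 0 and 0, and 1.37 and 1.52 FPKM at those stages. This gene was near or at 0 in most libraries, and its lower 2-cell level in Btg4-/- (-1.29 ± 0.19 (SE), adjusted p = 0.000104) rests on wild-type values of 1.37 and 1.52 FPKM. It passed the filter through that group alone (mean 1.44 FPKM), so the filter itself favoured a high wild-type 2-cell level. The call therefore lends no support to a difference, and with the filter at 5 FPKM it was lost.

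**Figure D3:**
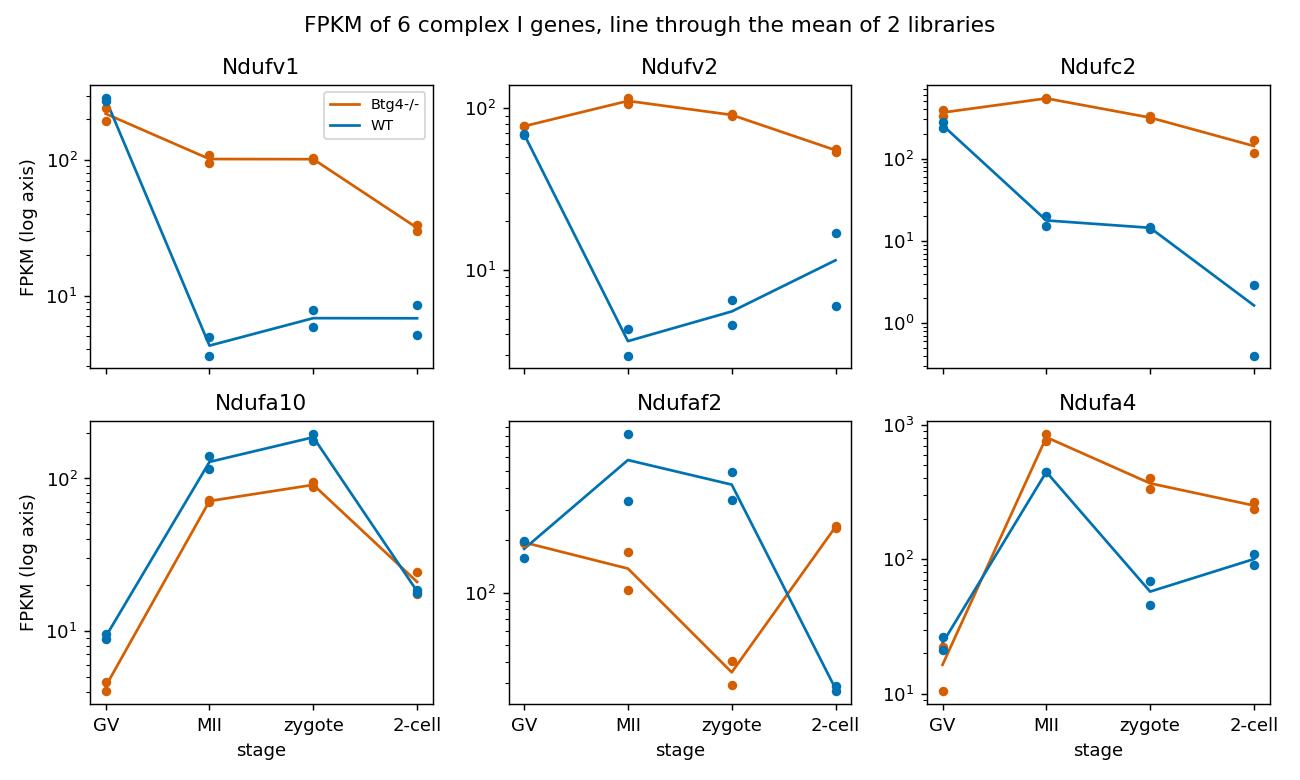
FPKM (log axis) of 6 complex I genes at GV, MII, zygote and 2-cell stage in Btg4-/- and wild type, with points for the 2 libraries of each group and lines through their means. Ndufv1, Ndufv2 and Ndufc2 were low in wild type by MII and high in Btg4-/-, Ndufa10 and Ndufa4 were higher at MII than at GV in both, and Ndufaf2 crossed over between the zygote and the 2-cell stage.

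Other measures moved with the genotype too, at MII and later. The summed level of 6 blood genes was 0 to 1.53 FPKM in Btg4-/- MII libraries (1 of the 6 at 1 FPKM or more in any, Ptprc at 0) and 50.3 to 85.0 in wild type (3 of the 6, Ptprc at 0). For 13 granulosa and cumulus cell genes it was 0.853 to 2.11 FPKM in Btg4-/- MII libraries (0 of 13 at 1 FPKM, with Foxl2, Star, Cyp11a1 and 4 others at 0) and 6.37 to 11.3 in wild type (5 of 13, with Amh, Foxl2, Has2 and Star at 0). Rn45s, the precursor of ribosomal RNA, had 11696 and 10929 FPKM in Btg4-/- and 20984 and 16014 in wild type at MII. In zygotes Rn45s had 8136 and 7933 FPKM in Btg4-/- and 12988 and 12307 in wild type, and at the 2-cell stage 6414 and 6654 against 14919 and 15015. The 8 oocyte markers summed to 1616 to 1831 FPKM in Btg4-/- against 2512 to 2616 in wild type at GV and 6720 to 7005 against 6890 to 7335 at MII. They summed to 7173 to 7663 against 3608 to 4060 in zygotes and 4664 to 4955 against 1701 to 1847 at the 2-cell stage, higher in Btg4-/- at the last 2 stages, as most complex I genes were. The part of these measures in the result was not tested. In zygotes, where 33 of the 44 genes were higher, blood genes were at 0 in Btg4-/- and summed to 0.224 to 2.26 FPKM in wild type, and the granulosa sum was 1.04 to 2.19 against 4.51 to 4.67. At GV the granulosa sum was 79.6 to 86.4 in Btg4-/- against 68.3 to 74.9 FPKM in wild type, and at the 2-cell stage it was 2.53 to 3.71 against 2.58 to 3.32. Sperm genes summed to at most 13.2 FPKM in any group of the Btg4 experiment, with Prm1, Tnp1 and Tnp2 at 0 in all.

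In wild-type oocytes most of these mRNAs were lower after maturation. Of the 44 genes, 4 were higher and 29 lower at MII than at GV, where 25.2 and 28.5% of all genes tested were, and the median change was -2.03 against -0.02. The largest falls were those of Ndufv1 (-5.76 ± 0.21 (SE), adjusted p = 3.95e-10), Ndufb7 (-5.64 ± 0.60 (SE), adjusted p = 4.43e-06) and Ndufs8 (-5.58 ± 0.45 (SE), adjusted p = 3.94e-07). Ndufb7, of the distal arm, was at 3.98 and 3.7 FPKM at MII and 240 and 242 at GV. The 4 genes that rose were Ndufa4 (4.18 ± 0.28 (SE), adjusted p = 6.68e-08), Ndufa10 (3.67 ± 0.17 (SE), adjusted p = 2.51e-09), Ndufa1 (2.35 ± 0.27 (SE), adjusted p = 9.05e-06) and Ndufaf2 (1.56 ± 0.35 (SE), adjusted p = 0.00193). For Ndufa1 the levels were 80.4 and 93.4 FPKM at MII and 13.6 and 19.2 at GV. Each of these was measured without overlap between the stages.

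In the libraries labelled Btg4-/- the same step moved genes both ways. At MII 14 were higher and 12 lower than at GV, where 27.3 and 18.1% of all genes were, with a median of 0.02 against 0.14. Scaled by the median of ratios the split was 13 higher and 20 lower, and without length dependence it was 14 and 16. Of the 29 genes that fell in wild type, 11 fell in Btg4-/- as well, 13 did not pass and 5 rose, among them Ndufa13, Ndufaf5, Ndufb5 and Ndufb8. The same split was not made over all genes that fell in wild type, so it cannot be called particular to complex I. Ndufb8, of the distal arm, was at 606 and 506 FPKM at MII and 257 and 195 at GV in Btg4-/-, and at 173 and 165 at MII and 238 and 234 at GV in wild type. It rose in Btg4-/- (1.30 ± 0.15 (SE), adjusted p = 1.29e-05) and fell in wild type (-0.48 ± 0.15 (SE), adjusted p = 0.0173). The wild-type fall of Ndufa13 was lost without GV library 1, GV library 2 or MII library 1, and that of Ndufb8 was lost without GV library 1, GV library 2 or MII library 2, and both with quantile or length-corrected values. The rise of Ndufb5 in Btg4-/- was lost with median-of-ratios scaling and that of Ndufaf5 with a pseudocount of 0.1. Ndufa4, Ndufa10 and Ndufa1 rose in both genotypes. The difference between the genotypes in this step was positive for 30 genes and negative for 1, where 26.5 and 16.0% of all genes passed, with a median of 2.11 against 0.22. Large positive ones were those of Ndufv1 (4.67 ± 0.30 (SE), adjusted p = 2.21e-07) and Ndufv2 (4.44 ± 0.46 (SE), adjusted p = 7.89e-06), and the negative one was Ndufaf2 (-2.10 ± 0.49 (SE), adjusted p = 0.00379). A second negative difference passed without Btg4-/- MII library 2 or wild-type MII library 1, and median-of-ratios scaling gave 25 positive and 2 negative (median 1.61, with that of all genes at 0). For Ndufa10 the difference was 0.09 ± 0.24 (SE, adjusted p = 0.801).

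**Figure D4:**
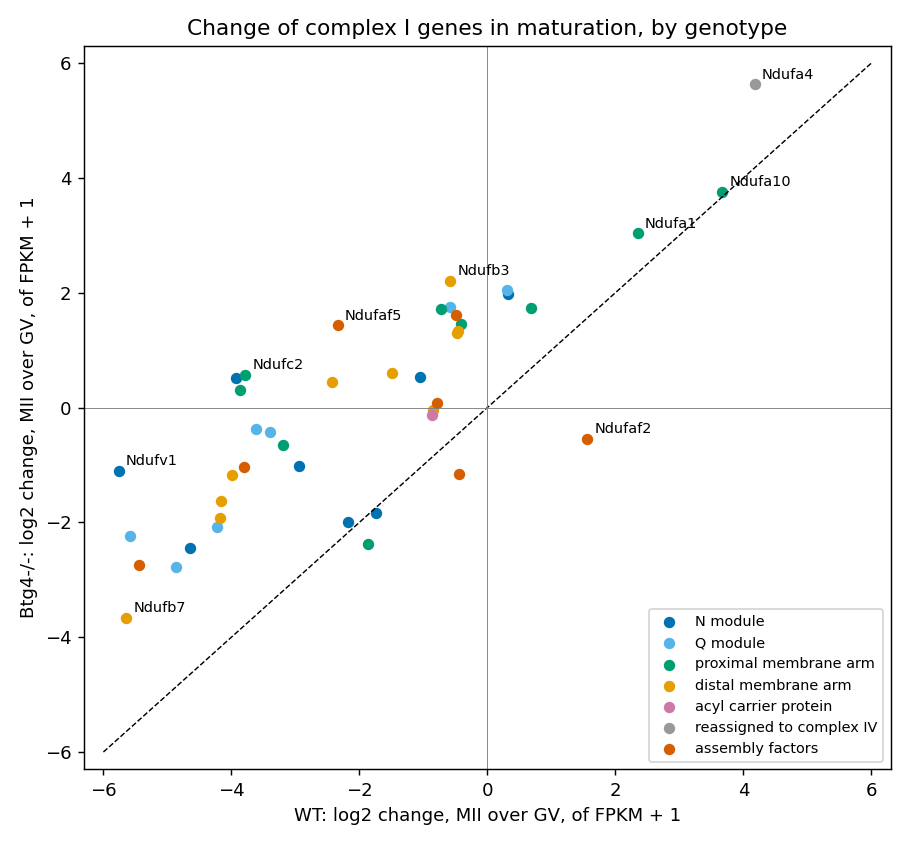
Log2 change from maturation (MII over GV) of FPKM + 1 for 43 of the 44 genes in Btg4-/- (vertical) against wild type (horizontal), coloured by module, with a dashed line where both are equal. Most genes lie above the line, Ndufa10 lies on it with 3.76 in Btg4-/- and 3.67 in wild type, and Ndufaf2 lies below it.

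Polyadenylation signals and cytoplasmic polyadenylation elements were read at the 3′ ends, since the step turns on poly(A) tails and mRNA was purified before library preparation. This search was chosen after the values were seen. The element TTTTAT or TTTTAAT (sense strand) lay in the last 100 nucleotides of 1 annotated transcript per gene (GENCODE M21) in 6 of 44 genes (13.6%), against 16.5% of 21724 protein-coding genes. The hexamer AATAAA or ATTAAA lay in the last 40 nucleotides in 33 (75.0%), against 69.4% of all. The 6 genes with the element were Ndufa2, Ndufab1, Ndufaf3, Ndufaf6, Ndufc2 and Ndufs4, and each was among the 29 of the 44 (65.9%) that fell in wild type. The fall of Ndufs4 was lost without GV library 2 or MII library 2 and with quantile or length-corrected values, and that of Ndufab1 with length-corrected values. How many genes with the element fell was not counted over all genes, so no link between element and fall is drawn. None of the 4 that rose had these letters in the window. The last letters of an element can be the first of a hexamer, and no match says only that these letters are absent from the window. Stretches of 30 bases are shown in GRCm38, 5′ to 3′ on the mRNA's strand, with elements and hexamers in capitals, for 5 genes that hold the element and then for 3 that rose in wild type.
Ndufc2, chr7:97407713-97407742 (plus strand): atattttctgagTTTTATgggattttctgt
Ndufs4, chr13:114287835-114287864 (minus strand): ccaatggagatcTTTTATtcttaggaaata
Ndufab1, chr7:122085425-122085454 (minus strand): TTTTATtaacAATAAAttcaatgAATAAAt
Ndufaf3, chr9:108565540-108565569 (minus strand): tttttcccaaacTTTTATtgaaaaattcaa
Ndufaf6, chr4:11051074-11051103 (minus strand): atactaaaatgaTTTTATgttgctcatact
Ndufa10, chr1:92439020-92439049 (minus strand): gcatttaacttaATTAAAacttaatgaaat
Ndufa1, chrX:37187595-37187624 (minus strand): tatgaaatgcatAATAAAaaattttaaaaa
Ndufaf2, chr13:108052591-108052620 (minus strand): gctgttttaacaAATAAAaggttaaaagtc
Ndufc2, Ndufs4 and Ndufab1 did not pass in Btg4-/- maturation, with changes of 0.57, 0.53 and -0.13, while Ndufaf3 and Ndufaf6 fell by 2.74 and 1.03 on the log2 scale. In wild type the changes of these 5 were -3.78, -1.05, -0.87, -5.45 and -3.81.

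Fertilization moved fewer of the genes. From MII to the zygote 5 rose and 10 fell in wild type, where 20.5 and 8.0% of all genes did, with a median of -0.26 against 0.22. The rises included Ndufs8 (1.82 ± 0.45 (SE), adjusted p = 0.00967), Ndufs3 (1.40), Ndufaf6 (0.90) and Ndufa10 (0.54), and 3 rather than 5 passed with median-of-ratios scaling or length correction. Ndufa10 was lost without MII library 1 (0.40, adjusted p = 0.185) or either zygote library (0.62, 0.0594 and 0.46, 0.170), Ndufaf6 without MII library 1 (0.58, 0.225) or zygote library 2 (0.50, 0.294), and Ndufs8 without MII library 2 (1.34, 0.101) or zygote library 1 (1.55, 0.0777). The largest falls were Ndufa1 (-3.54 ± 0.27 (SE), adjusted p = 3e-06), Ndufa11 (-3.02) and Ndufa4 (-2.97). In Btg4-/- no gene rose at this step by limma (0 of 44, and also 0 at an unadjusted p below 0.05) and 7 fell, where 10.3 and 5.38% of all genes did at adjusted p below 0.05, with a median of -0.58 against 0.06. That count of 7 was 2 without MII library 1, 4 without MII library 2, 1 without zygote library 2, 2 after quantile normalization and 18 when the 4 libraries compared were fitted alone. The genotypes differed in this step in 4 genes with a positive and 3 with a negative difference, where 4.95 and 7.25% of all genes passed. They included Ndufa1 (2.82), Ndufa11 (2.37), Ndufa4 (1.82) and Ndufb8 (1.51) on the positive side and Ndufs3 (-1.35) and Ndufb5 (-1.01) on the negative. Without wild-type MII library 2 or wild-type zygote library 1, 5 were negative. Ndufa11 missed the threshold without Btg4-/- MII library 2, wild-type MII library 2, either Btg4-/- zygote library or wild-type zygote library 2, with adjusted p of 0.0662 to 0.0943.

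From zygote to 2-cell embryo 9 genes rose and 15 fell in wild type, where 27.1 and 30.2% of all genes did, with a median of -0.39 against -0.06. With median-of-ratios scaling 13 rose and 13 fell, and 4 rose without wild-type 2-cell library 2 and 5 without zygote library 2. The largest rises were Ndufa1 (2.22 ± 0.27 (SE), adjusted p = 1.43e-05), Ndufa11 (1.95) and Ndufs8 (1.48, which missed the threshold without zygote library 2, 1.21 with adjusted p = 0.0986, or 2-cell library 2, 0.73 with 0.200), and the largest falls were Ndufaf2 (-3.83 ± 0.35 (SE), adjusted p = 9.72e-07), Ndufa10 (-3.29) and Ndufc2 (-2.73). The other rises were Ndufaf1 (1.29, which passed the filter through wild-type 2-cell embryos alone), Ndufa9 (1.23), Ndufa7 (0.91), Ndufaf5 (0.85), Ndufa4 (0.82) and Ndufs7 (0.67). The last 3 were lost without zygote library 2 or either 2-cell library (adjusted p of 0.0562 to 0.264), and Ndufa7 without either zygote library or 2-cell library 2 (0.0805 to 0.305). In Btg4-/- 6 rose and 17 fell, where 18.3 and 28.2% of all genes did, with a median of -0.71 against -0.17. Among core subunits, Ndufs8 (-2.10 ± 0.45 (SE), adjusted p = 0.00211), Ndufs1 (-1.99) and Ndufv1 (-1.66) fell there, and Ndufv2 did not pass (-0.71, 0.0896). Smaller falls of Ndufs3 (-0.67) and Ndufs7 (-0.77) were each lost without 2-cell library 2, and also without zygote library 1 for Ndufs3 and zygote library 2 for Ndufs7. The difference between genotypes was positive for 9 genes and negative for 14, where 22.2 and 25.9% of all genes passed. Ndufaf2 had the largest (6.60 ± 0.49 (SE), adjusted p = 4.74e-07), as its level rose in Btg4-/- (2.76) and fell in wild type. It was followed by Ndufb3 (2.46) and Ndufaf6 (2.28). Ndufs8 (-3.58), Ndufa11 (-3.49) and Ndufa2 (-3.35) were the most negative, and Ndufa2 missed the threshold without wild-type zygote library 2 (-2.87, adjusted p = 0.0606) or wild-type 2-cell library 2 (-3.18, 0.0661).

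The promoters were searched for letters of factors known to act on nuclear genes of mitochondria. RefSeq windows from 250 bases before to 50 after the gene start (GRCm38.p6) were at hand for 39 of the 44 genes. The full palindromic NRF1 site lay in 3 (7.69%, Ndufa11, Ndufaf4 and Ndufaf5), against 1.07% of 27025 windows, and its core TGCGCA in 11 (28.2%), against 8.79%. The YY1 motif AAGATGG lay in 7 (17.9%) against 7.28%, and the ETS motif CCGGAAG in 5 (12.8%) against 9.93%. Both strands were searched. The shorter motif can share letters with the full site where they overlap, and Ndufaf4 holds both. A match is a description and not a bound site. The 3 windows with both the shorter NRF1 motif and the YY1 motif are shown with these in capitals, 5′ to 3′ on the gene's strand.
Ndufa9, chr6:126849095-126849394 (minus strand): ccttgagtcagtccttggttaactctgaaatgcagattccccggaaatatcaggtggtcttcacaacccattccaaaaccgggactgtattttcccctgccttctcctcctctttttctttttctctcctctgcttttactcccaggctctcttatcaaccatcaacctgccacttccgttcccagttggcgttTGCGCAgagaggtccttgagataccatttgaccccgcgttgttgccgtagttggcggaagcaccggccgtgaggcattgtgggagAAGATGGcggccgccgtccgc
Ndufb8, chr19:44555393-44555692 (minus strand): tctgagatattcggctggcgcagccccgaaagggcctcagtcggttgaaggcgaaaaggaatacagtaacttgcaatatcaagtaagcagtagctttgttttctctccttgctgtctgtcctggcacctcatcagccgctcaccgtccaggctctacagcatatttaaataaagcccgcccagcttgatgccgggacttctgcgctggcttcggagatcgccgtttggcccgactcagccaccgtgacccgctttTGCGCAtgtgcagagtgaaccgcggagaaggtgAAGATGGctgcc
Ndufs6, chr13:73328433-73328732 (minus strand): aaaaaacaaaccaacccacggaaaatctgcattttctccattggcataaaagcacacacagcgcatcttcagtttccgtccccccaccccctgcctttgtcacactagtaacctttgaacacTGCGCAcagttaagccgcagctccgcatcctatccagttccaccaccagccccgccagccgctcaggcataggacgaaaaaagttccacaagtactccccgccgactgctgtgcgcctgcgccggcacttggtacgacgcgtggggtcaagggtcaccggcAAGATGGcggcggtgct
All 3 genes were higher in Btg4-/- at MII, by 2.36, 1.71 and 2.39, where 79.5% of the 44 and 29.1% of all genes tested were higher. Their changes in wild-type maturation were -4.87, -0.48 and -2.94, where 65.9% of the 44 and 28.5% of all genes tested fell. No link between the motifs and these changes is drawn.

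The other genes of the pathway were taken from lists. Beside their counts, 29.1% of all genes tested were higher and 23.3% lower in Btg4-/- at MII. In the zygote 24.4 and 23.3% were, and at the 2-cell stage 22.6 and 26.4%. In wild-type maturation 25.2% of all genes rose and 28.5% fell. Of 8 complex I assembly factors named outside the Nduf series, such as Acad9 and Ecsit, 6 were higher and none lower in Btg4-/- at MII, 5 and 0 in the zygote, and 3 and 2 at the 2-cell stage. Complex II had 3 of 4 genes higher at MII and 1, Sdha, lower, and complexes III, IV and V had 7 of 9, 7 of 10 and 13 of 15 higher and none lower. In zygotes complexes II to V had 3, 8, 8 and 12 genes higher and 1, 0, 1 and 0 lower, and at the 2-cell stage 4, 3, 7 and 11 higher and 0, 2, 1 and 2 lower. In wild-type maturation 3, 6, 4 and 12 of their genes fell and 1, 1, 4 and 2 rose. The median changes at MII were 1.48 for the outside assembly factors and 2.79, 1.87, 1.48 and 1.96 for complexes II to V, beside 2.37 for the 44 complex I genes. The membrane anchor Sdhd of complex II was at 712 and 696 FPKM in Btg4-/- and 10.6 and 10.1 in wild type at MII. Cox7c of complex IV was at 1785 and 1753 against 15.3 and 4.98 FPKM. Neither pair overlapped, and both log2 changes, 5.95 and 7.48, were above the 4.87 of Ndufc2 at MII. Of 9 genes tested for mitochondrial transcription and biogenesis, 3 were higher at MII (Nrf1, Polrmt, Tfb1m) and 1, Ppargc1b, lower, with a median of 0.50, where 29.1 and 23.3% of all genes were. In the zygote 2 were higher and 1 lower, where 24.4 and 23.3% of all genes were, and at the 2-cell stage 1 and 3, where 22.6 and 26.4% were. No test set these lists against complex I.

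The Erk experiment asked how oocytes labelled Erk-/- compare at GV and MII, with 1 library per group and so no test. A gene is counted where FPKM + 1 differed by more than 2-fold, and 42 of the 44 genes reached 1 FPKM in any of the 4 libraries. At MII 23 genes were higher in Erk-/- and 0 lower, where 30.7% of 11404 genes were higher and 8.08% lower, with a median difference of 1.30 against 0.26. At GV 4 were higher and 14 lower, where 18.7 and 23.5% of all genes were, with a median of -0.25 against -0.01. From GV to MII the wild-type pair had 0 genes higher and 32 lower, where 20.4 and 46.9% were, and the Erk-/- pair had 6 and 17, where 23.9 and 33.4% were. The medians of these steps were -0.64 in Erk-/- against -0.09 over all genes, and -2.03 in wild type against -0.76. The wild-type MII library, on which the 23 and the 32 rest, had 7265 symbols at 1 FPKM or more, the fewest of all 20 libraries, against 8927 in the Erk-/- MII library and 8909 and 9253 in the Erk-/- and wild-type GV libraries. The part of this in the result was not tested. Differences that involve a library at 0 depend on the 1 FPKM added and give no fold. The granulosa sum was 11.9 FPKM in Erk-/- and 22.7 in wild type at MII (1 of 13 genes at 1 FPKM or more in each, Amh and Foxl2 at 0 in both), and blood genes were at 0 in all 4 libraries, and their part in the result was not tested.

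The core subunits described here were low in the wild-type MII library. Ndufv1 was at 9.72 FPKM in Erk-/- and 0.063 in wild type MII oocytes, and at 32.2 FPKM in Erk-/- and 90.2 in wild type GV oocytes. Ndufv2 was at 7.7 FPKM in Erk-/- and 0 in wild type at MII, and at 27 FPKM in Erk-/- and 38.1 in wild type at GV. Both were past 2-fold higher in Erk-/- at MII, and at GV Ndufv1 was past 2-fold lower and Ndufv2 within 2-fold. Ndufs8 was at 5.74 FPKM in Erk-/- and 0 in wild type at MII, and at 45.6 FPKM in Erk-/- and 28.7 in wild type at GV. Ndufs7 was at 25.4 FPKM in Erk-/- and 6.47 in wild type at MII, and at 44.2 FPKM in Erk-/- and 70.9 in wild type at GV. Both were also higher in Erk-/- at MII past 2-fold. Ndufs1 was at 7.13 FPKM in Erk-/- and 2.05 in wild type at MII, and at 0 FPKM in Erk-/- and 10.8 in wild type at GV. Ndufs3 was at 8.33 FPKM in Erk-/- and 4.82 in wild type at MII, and at 76.6 FPKM in Erk-/- and 71.1 in wild type at GV. Ndufs1 passed 2-fold at MII and Ndufs3 did not, with a log2 difference of 0.68.

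Ndufa2, Ndufaf3 and Ndufv1 had the largest log2 differences at MII, 3.70, 3.70 and 3.33. Ndufa2 was at 115 FPKM in Erk-/- and 7.91 in wild type at MII, and at 55 FPKM in Erk-/- and 168 in wild type at GV, so the direction turned between the stages. Ndufaf3 was at 12 FPKM in Erk-/- and 0 in wild type at MII, and at 24.6 FPKM in Erk-/- and 26.9 in wild type at GV. Ndufaf7 was at 5.59 FPKM in Erk-/- and 0 in wild type at MII, and at 3.39 FPKM in Erk-/- and 25.9 in wild type at GV. Both assembly factors were listed at 0 in wild-type MII oocytes. Ndufaf5 was at 0.106 FPKM in Erk-/- and 0 in wild type at MII, and at 0 FPKM in Erk-/- and 7.09 in wild type at GV. Ndufaf6 was at 0.397 FPKM in Erk-/- and 0 in wild type at MII, and at 3.99 FPKM in Erk-/- and 26.2 in wild type at GV. Neither passed 2-fold at MII. Ndufaf2 was at 12.9 FPKM in Erk-/- and 17.2 in wild type at MII, and at 10.2 FPKM in Erk-/- and 52 in wild type at GV. Ndufaf4 was at 8.94 FPKM in Erk-/- and 9.53 in wild type at MII, and at 30.7 FPKM in Erk-/- and 23.5 in wild type at GV. Both were within 2-fold at MII, and Ndufaf1 was listed at 0 in all 4 libraries.

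At GV the largest differences were those of Ndufa7, Ndufa3 and Ndufv3 among higher genes (2.75, 1.78 and 1.42) and of Ndufa5, Ndufa6 and Ndufs1 among lower ones (-5.69, -4.36 and -3.56). Ndufa5, an accessory subunit of the Q module, was at 0 FPKM in Erk-/- and 50.6 in wild type GV oocytes and at 52.3 FPKM in Erk-/- and 12.4 in wild type at MII. Ndufa6, of the same module, was at 9.39 FPKM in Erk-/- and 213 in wild type at GV and at 76.4 FPKM in Erk-/- and 10.2 in wild type at MII. Ndufa7, also a subunit there, was at 63.1 FPKM in Erk-/- and 8.56 in wild type at GV and at 89.7 FPKM in Erk-/- and 10.5 in wild type at MII. Of these 3 genes of 1 module, Ndufa7 was thus higher and the other 2 lower in Erk-/- at GV, and all 3 were higher at MII. Ndufa3, of the proximal arm, was at 177 FPKM in Erk-/- and 50.8 in wild type at GV, and Ndufv3, of the N module, at 77.3 FPKM in Erk-/- and 28.3 in wild type.

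Some genes had different courses in the 2 experiments. Ndufa10 was listed at 0 in both MII libraries of the Erk experiment, and at 35.8 FPKM in Erk-/- and 76.4 in wild type GV oocytes, whereas all 4 MII libraries of the Btg4 experiment had 69.8 to 141 FPKM and the GV libraries 4.01 to 9.47. Ndufc1, of the proximal arm, was also listed at 0 in both Erk experiment MII libraries, and at 168 FPKM in Erk-/- and 193 in wild type GV oocytes. Its direction was the same in wild type of the Btg4 experiment, with 110 and 95.4 FPKM at GV and 9.84 and 3.62 at MII. An exact 0 can be a failed estimate. Ndufa4 stayed within 2-fold in the wild-type pair, at 287 FPKM at MII and 159 at GV, while wild type of the Btg4 experiment had 447 and 447 at MII and 26.5 and 21.1 at GV. Ndufs5 was listed close to 0 (at most 0.000615 FPKM) in all 4 Erk experiment libraries, while BC002163, which overlaps it, was at 64.6 to 146 FPKM. Of the 35 genes higher in Btg4-/- at MII, 34 reached 1 FPKM (Ndufs5 did not), and 20 of them (58.8%) were past 2-fold higher in Erk-/-, close to the 23 of all 42 (54.8%). Of the 6 that did not pass in the Btg4 experiment 3 were past 2-fold higher, and of the 2 lower ones neither.

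In the step from GV to MII the largest differences of the wild-type pair were those of Ndufc1, Ndufv1 and Ndufa10 (-7.60, -6.42 and -6.28). In the Erk-/- pair Ndufa5, Ndufs1 and Ndufa6 were the most positive (5.74, 3.02 and 2.90), each of them low or at 0 in the Erk-/- GV library. Ndufc1, Ndufa10 and Ndufb10 were the most negative there (-7.40, -5.20 and -3.78). Ndufb10, of the distal arm, was at 5.45 FPKM in Erk-/- and 0.19 in wild type at MII, and at 87.5 FPKM in Erk-/- and 70.5 in wild type at GV.

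**Figure D5:**
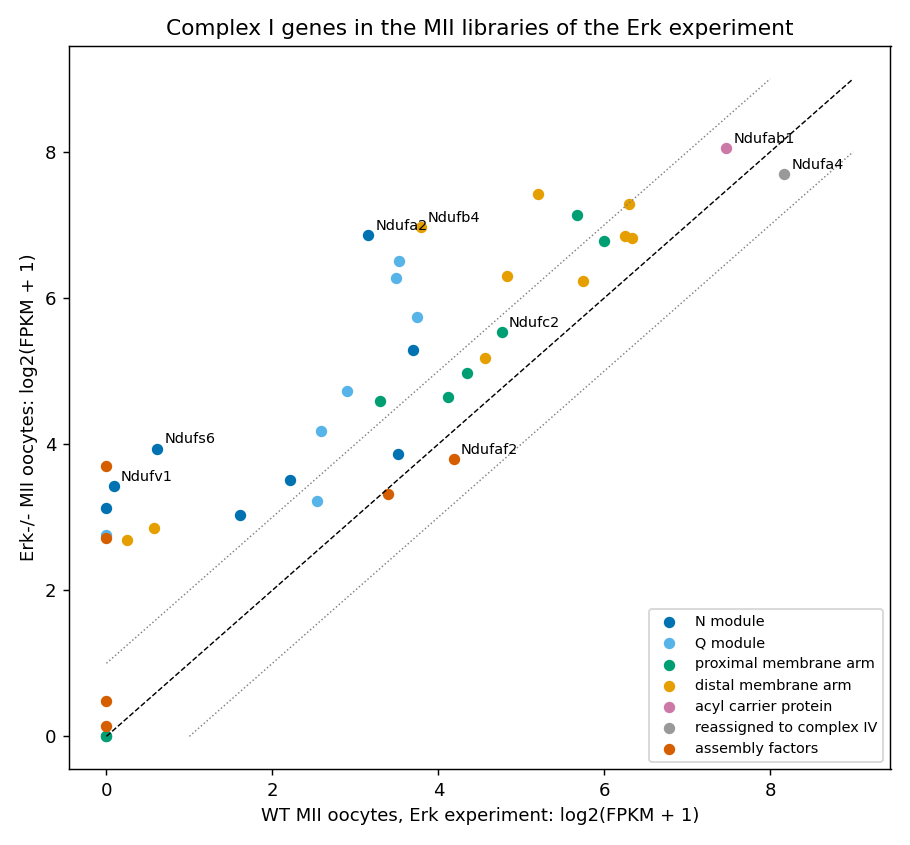
Level of 41 of the 42 complex I genes that reached 1 FPKM in the Erk experiment, as log2(FPKM + 1), in the Erk-/- MII library (vertical) and the wild-type MII library (horizontal), with a dashed line where both are equal and dotted lines at 2-fold. The genes past the upper dotted line include Ndufv1, Ndufa2, Ndufb4 and Ndufs6, and none lies past the lower one.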

How the data were processed

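The authors deposited 1 table of FPKM per library, with a lower and an upper bound per locus. Per the submitters' processing notes, CASAVA 1.8, TopHat and Cufflinks were used with mm9, with no version of the last pair in these sources. Loci with the same symbol were summed. FPKM carries no read counts, so depth and counting intervals are not given. Log2(FPKM + 1) was fitted with limma 3.58.1 (R 4.3.3), 1 mean per group over the 16 libraries of the Btg4 experiment, with 8 residual degrees of freedom, a mean-dependent prior variance and Benjamini-Hochberg adjustment over the 12311 genes with a mean of at least 1 FPKM in 1 group. A call is an adjusted p below 0.05. On simulated data with 200 changed genes for the Btg4-/- against wild-type MII comparison, run on 12311 genes, 72% of changed and 0.1% of unchanged genes were called. In the real comparison far more genes were called (29.1% higher and 23.3% lower), so these rates may not hold there. The simulated spread was taken from the same libraries, so it cannot show whether that spread is technical. In the Erk experiment the ratio of FPKM + 1 was used, without a test.

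The members, lists and tests were chosen with earlier results of these data known. Named are core subunits, assembly factors, the 3 largest changes each way per comparison and members called against the majority, and some results that this rule would name are not reported here. The 3′-end search and the use of interval midpoints were chosen after the values were seen. In 5 to 29 of the 44 genes per library the deposited FPKM lay above its own deposited interval. Ndufa4l2 is outside the rule, and Ndufb1 and Ndufaf8 are not analysed here. Processed or near-identical copies (Ndufab1-ps, Ndufb4b, Ndufb4c, Ndufs6b, Ndufa11b) could share reads with their parents. Python 3.11.15, pandas 2.3.3, numpy 2.4.6 and matplotlib 3.10.9 were used for tables and plots. Alternatives tried were a pseudocount of 0.1, no filter, a filter at 5 FPKM, median-of-ratios and quantile scaling, a length correction, a replicate block, fitting the compared libraries alone and leaving out each library.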

Additional observations from a re-analysis of the deposited data

Results flagged for a closer look

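The genotypes differed in their course through the same developmental step, by a test of the difference itself in limma. In maturation (MII against GV), 30 complex I genes had a positive difference, Btg4-/- over wild type, and 1 a negative one, where 26.5 and 16.0% of all genes passed. Large log2 differences were 4.67 for Ndufv1 and 4.44 for Ndufv2, and Ndufaf2 had -2.10. In fertilization (zygote against MII), 4 genes had a positive and 3 a negative difference (9.09 and 6.82% of the 44), beside 4.95 and 7.25% of all genes. They included Ndufa1 (2.82), Ndufa11 (2.37) and Ndufa4 (1.82) on one side and Ndufs3 (-1.35) and Ndufb5 (-1.01) on the other. The call of Ndufa11 was lost without Btg4-/- MII library 2, wild-type MII library 2, either Btg4-/- zygote library or wild-type zygote library 2 (adjusted p of 0.0662 to 0.0943), and with a pseudocount of 0.1 (0.051). In cleavage (2-cell against zygote), 9 genes had a positive and 14 a negative difference (20.5 and 31.8% of the 44), near the 22.2 and 25.9% of all genes. Ndufaf2 had 6.60, Ndufb3 2.46 and Ndufaf6 2.28, followed by Ndufab1 (1.8), Ndufb5 (1.77), Ndufc2 (1.56), Ndufa10 (1.20), Ndufs3 (1.19) and Ndufaf4 (1.0). Ndufs8 had -3.58, Ndufa11 -3.49 and Ndufa2 -3.35. These 3 steps share libraries (MII in the first pair of steps, zygotes in the second), so a high or low library enters 2 of them with opposite sign. The call of Ndufc2 in cleavage was lost without Btg4-/- zygote library 2, wild-type zygote library 1 or Btg4-/- 2-cell library 1 (adjusted p of 0.0516 to 0.0814).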

How the results depend on the processing

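Depth cannot be read from FPKM, so limits by depth are not given, and with 2 libraries a group each call rests on a pooled spread with 8 residual degrees of freedom. Of 412 alternative values of the 34 counts of complex I genes, 43 differed from the reported count by more than 1.5 times. Of 1014 alternative values of 67 named gene results, 928 kept direction and call, 86 kept direction but missed the threshold, and 0 reversed. These 67 were among the 3 largest calls each way or the calls against the majority, without the Btg4-/- steps. They were picked in part for size, so the tally does not cover every call given above. The MII calls of Ndufs1 and Ndufa4 and the zygote call of Ndufaf3, each lost in several settings, are outside it. The count of genes higher in Btg4-/- at GV (2) was 1 with a pseudocount of 0.1, no filter, quantile normalization or the replicate block, and 4 with the compared libraries alone. The count lower at GV (2) was 1 with the filter at 5 FPKM or length correction, with or without the block. At the 2-cell stage the count lower (4) was 2 with the compared libraries alone. In wild-type fertilization 3 rose with median-of-ratios scaling or length correction, with or without the block. In Btg4-/- maturation 20 fell with median-of-ratios scaling, and in Btg4-/- fertilization 2 fell with quantile normalization and 18 with the compared libraries alone. The negative difference in maturation (1) was 2 with the filter at 5 FPKM, median-of-ratios scaling, quantile normalization, the replicate block or the compared libraries alone, and 3 with length correction, with or without the block. The negative difference in fertilization (3) was 5 with the replicate block, with or without length correction. In the wild-type pair of the Erk experiment 1 gene rose with median-of-ratios scaling. The cause of these was not tested. Leaving out 1 library gave 0 higher and 0 to 2 lower at GV, 31 to 33 higher and 2 lower at MII, 29 to 33 higher and 3 to 4 lower in zygotes, and 26 to 28 higher and 1 to 5 lower at the 2-cell stage. It gave 3 to 5 rises in wild-type fertilization, 4 to 9 rises in wild-type cleavage, 1 to 5 falls in Btg4-/- fertilization, and 1 to 2 and 3 to 5 negative differences in maturation and fertilization. Replicate numbers did not pair the samples, with same-number correlations of -0.015 to 0.126 over all genes, so the block stands as an alternative alone.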
